A study of Homo sapiens with 32 samples.

Results

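Receptor tyrosine kinases are cell-surface proteins that bind a growth factor or matrix ligand outside the cell and phosphorylate tyrosines inside it. The m6A peaks of 10 of them were examined: EGFR, ERBB2, ERBB3, MET, AXL, IGF1R, INSR, FGFR1, EPHA2 and DDR1. A peak was assigned to a gene when it overlapped the gene body in the GRCh38.p14 RefSeq table by at least 1 bp. Of the 10 genes, 9 carried a peak in at least 1 library and 6 carried one in every library. Together they held 921 of the 474004 peaks, 482 in 786-O and 439 in RPTEC, and they were 10 of 20037 protein-coding genes in the table, 13420 of which had a peak.

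Peaks were called from MeRIP-seq, in which an antibody against N6-methyladenosine enriches methylated RNA fragments (IP) that are then compared with the unenriched Input. 786-O is a clear cell renal cell carcinoma (ccRCC) line, grown in RPMI1640 with serum. RPTEC is an immortalized renal proximal tubule line, grown in DMEM F12 with a growth kit and serum, and served as the surrogate for normal kidney epithelium. In each cell line there were 4 untreated lines with 2 IP libraries each, which gives 16 libraries. WT is the parent, and SETD2KO-1 and SETD2KO-2 are knockout clones. SETD2KO-1R is SETD2KO-1 carrying a full-length FLAG-tagged SETD2 transgene and was itself derived as a clone. The lines with SETD2 (the parent and the rescue) are termed SETD2-expressing, and in each cell line their 4 libraries stand against 4 SETD2KO libraries. SETD2 is the histone methyltransferase that places H3K36me3 over transcribed gene bodies, and the question was whether its loss changes where m6A is found. The sources do not say that the 2 libraries of a line came from separate cultures, so the tests measure the spread between libraries.

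The EGF receptor family (EGFR, ERBB2, ERBB3), the HGF receptor MET, the GAS6 receptor AXL and the insulin receptor family (IGF1R, INSR) signal largely through the RAS-MAPK and PI3K-AKT pathways. FGFR1 binds fibroblast growth factors, EPHA2 binds ephrins on neighbouring cells, and DDR1 binds collagen. In ccRCC, loss of VHL stabilizes hypoxia-inducible factors, and EGFR, MET and AXL are among the receptors studied as drug targets in this cancer.

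The lists held 25710 to 39670 peaks per library in 786-O and 19249 to 31207 in RPTEC, with the shortest list in RPTEC SETD2KO-2 replicate 2. They give positions, a score and a summit and no read counts, so the depth of each library, for which the methods give only a minimum, is unknown and no counting interval can be given. The score has no stated scale and was used only as a percentile rank within its own list. Of 13 renal tubule marker genes, 11 had a peak in 786-O and 10 in RPTEC, among them PAX8, PAX2, KRT8 and KRT18 in all 16 libraries, while LRP2 and AQP1 had none. Of 4 blood markers only CD68 had a peak, and of 3 endothelial markers only CDH5 did, in 4 RPTEC libraries. A peak shows enriched RNA and not its level, so less RNA and less m6A on the same RNA cannot be told apart, nor can fewer cells carrying it. The lists carry no strand. EGFR overlaps the lncRNA EGFR-AS1, IGF1R overlaps IRAIN, EPHA2 overlaps EPHA2-AS1, MET overlaps COMETT and ERBB2 overlaps MIEN1, and peaks there cannot be assigned to one of the pair. The cell lines were grown in different media, so a difference between 786-O and RPTEC cannot be told apart from one between the media, and whether their libraries were prepared together is not given in the sources used here.

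The first transcribed bases are shown for the 5 receptors whose annotated start lay under a peak in some of the libraries. Sequences are from RefSeq (GRCh38.p14), read 5′ to 3′ on the strand of the gene, 30 bases each.
EGFR: agacgtccgggcagcccccggcgcagcgcg
MET: agacacgtgctggggcgggcaggcgagcgc
AXL: gagaaggcggctgctgggcagagccggtgg
IGF1R: agtgtgtggcagcggcggcggcggcgcggc
EPHA2: attaaGGACtcggggcaggaggggcagaag
Capitals mark GGAC, a core form of the m6A consensus, searched on the transcribed strand of the first 50 bases. Of these 5 starts EPHA2 alone held it, and 18.9% of the 35116 starts in the table did. The start of MET lay under a peak in 14 of 16 libraries, that of AXL in 12, that of IGF1R in 11, that of EPHA2 in 9 and that of EGFR in 4. The annotated starts of ERBB2, INSR and DDR1 lay under a peak in 0 libraries, and ERBB3 and FGFR1 were not in the sequence table.

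EGFR carried the most peaks of the 10 genes in 786-O and MET the most in RPTEC. Over all protein-coding genes with a peak, the median of the mean peak number per library was 1.63 in 786-O and 1.38 in RPTEC. EGFR, MET, AXL, IGF1R, FGFR1 and EPHA2 lay above the 90th percentile of 5.25 in 786-O, and the same genes except FGFR1 lay above that of 4.63 in RPTEC. Longer genes offer more room for peaks. Per 100 kb of gene body, the short genes EPHA2 and AXL had the highest mean peak number, 24.6 and 22.5, against 9.66 in MET, 7.72 in FGFR1, 7.49 in DDR1, 6.01 in ERBB2, 5.39 in EGFR and 2.87 in IGF1R. INSR had 0.137 and ERBB3 had 0.

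**Figure D1:**
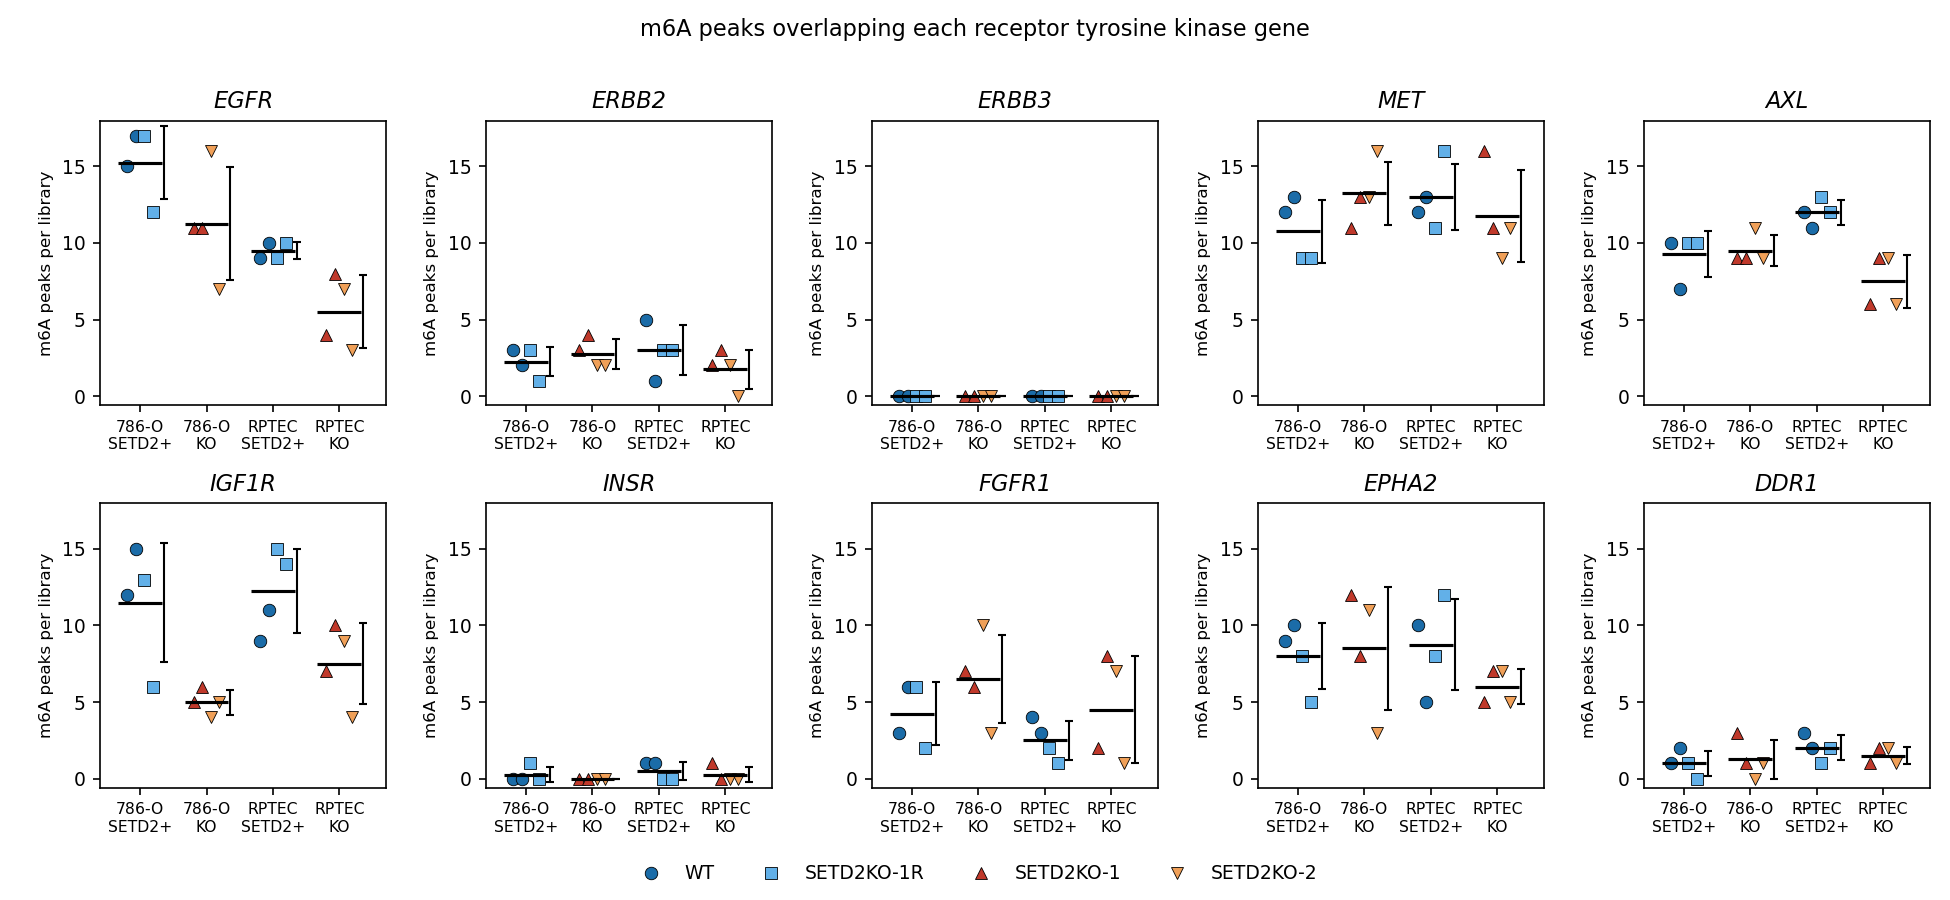
m6A peaks overlapping each of the 10 genes in each library (vertical axis, number of peaks), with 1 point per library and 4 libraries per group; SETD2+ marks the SETD2-expressing lines WT and SETD2KO-1R, horizontal bars are means and vertical bars are ± 1 SD. In RPTEC the SETD2KO points of EGFR (3 to 8) and AXL (6 to 9) lie below all SETD2-expressing points (9 to 10 and 11 to 13), and ERBB3 is at 0 throughout.

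EGFR, the receptor for EGF and TGFA, spans chr7:55019017-55211628. Its peak numbers in 786-O were 15 and 17 in WT, 11 and 11 in SETD2KO-1, 16 and 7 in SETD2KO-2, and 17 and 12 in SETD2KO-1R. In RPTEC they were 9 and 10 in WT, 4 and 8 in SETD2KO-1, 7 and 3 in SETD2KO-2, and 9 and 10 in SETD2KO-1R. The 786-O libraries were mostly above the RPTEC libraries, with 786-O SETD2KO-2 replicate 2 the exception. The best EGFR peak ranked between the 91.8th and the 99.5th percentile of its list in all 16 libraries. It came from the region chr7:55204001-55206634, about 6.31 kb from the annotated 3′ end of the gene, which was called in all 16 libraries with a mean rank of 97.2.

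ERBB2, the orphan partner of the family, spans chr17:39688094-39728658. It had 3, 2, 3, 4, 2, 2, 3 and 1 peaks in the 786-O libraries, listed as replicate pairs of WT, then of both knockout clones, then of SETD2KO-1R, and 5, 1, 2, 3, 2, 0, 3 and 3 in RPTEC in the same order. The cell lines overlapped almost completely. Its most frequent region, chr17:39727614-39728455, lay 0.624 kb from the 3′ end and was called in 15 of 16 libraries, all but RPTEC SETD2KO-2 replicate 2. Its mean rank of 53.4 was far below that of the EGFR region. ERBB3, the neuregulin receptor with little kinase activity of its own (chr12:56080108-56103505), had 0 peaks in all 16 libraries.

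MET spans chr7:116672196-116798377. The 786-O libraries held 9 to 16 MET peaks with a median of 12.5, and the RPTEC libraries held 9 to 16 with a median of 11.5. The 2 ranges were the same. It had 4 regions called in all 16 libraries, more than any of the other 9 genes, and the best of them was chr7:116754555-116754978, with a mean rank of 86.5. These 4 lay 27.3 to 82.6 kb from the annotated start and 43.6 to 98.9 kb from the 3′ end, within the body of the gene.

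AXL spans chr19:41219223-41261766. Its peak numbers were 7 to 11 in 786-O and 6 to 13 in RPTEC, and its best peak ranked at the 86.5th percentile or above in every library. The region called in all 16 libraries, chr19:41239862-41241743, had a mean rank of only 43.6, so the most reproducible AXL region was not the strongest. A region at chr19:41238730-41239145, just upstream, was called in 14 libraries, 6 in 786-O and 8 in RPTEC, with a mean rank of 93.3.

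IGF1R, the IGF1 and IGF2 receptor, is the longest of the genes at 316 kb (chr15:98648539-98964530). It had 12 and 15 peaks in 786-O WT, 5 and 6 in SETD2KO-1, 4 and 5 in SETD2KO-2, and 13 and 6 in SETD2KO-1R. In RPTEC it had 9 and 11 in WT, 7 and 10 in SETD2KO-1, 9 and 4 in SETD2KO-2, and 15 and 14 in SETD2KO-1R. In both cell lines the lowest number was in SETD2KO-2. INSR, the insulin receptor and its closest relative, spans chr19:7112265-7294414 and had 1 peak in each of 4 libraries (786-O SETD2KO-1R replicate 1, RPTEC WT replicates 1 and 2, and RPTEC SETD2KO-1 replicate 1) and 0 in the other 12. These 4 INSR peaks ranked between the 9.21th and the 26.4th percentile.

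FGFR1, on chromosome 8, had 2 to 10 peaks in 786-O and 1 to 8 in RPTEC. EPHA2 (chr1:16124337-16156069) had 3 to 12 in 786-O and 5 to 12 in RPTEC, with 2 regions called in all 16 libraries, of which chr1:16124688-16125663 lay 0.839 kb from the 3′ end. DDR1 (chr6:30880970-30900156) had 0 to 3 peaks in 786-O and 1 to 3 in RPTEC. Its region chr6:30898445-30899724, 1.07 kb from the 3′ end, was called in 14 libraries. The other EPHA2 region called in all 16 libraries, chr1:16148574-16149379, lay 24.6 kb from the 3′ end.

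The cell lines were compared first. Each side is a single cell line, and its 8 libraries come from a parent and clones derived from it. All p-values between the cell lines therefore take libraries as units. They do not measure the spread between different tumour or tubule lines. No gene of the 10 passed the threshold of 0.05 on the adjusted p in peak number, where 5.36% of the 13420 genes did, 3.44% in the higher and 1.92% in the lower direction. Of the genes passing, 64.3% were thus higher in 786-O, against 34.4% after cutting every list to equal length and 45.6% of those passing per 10000 peaks of the list. EGFR came nearest. It had 13.25 ± 3.58 peaks in 786-O and 7.5 ± 2.67 in RPTEC (mean ± SD, n = 8 libraries each), a difference of 5.75 (two-sided exact permutation test, p = 0.00466, adjusted p = 0.0723 by Benjamini-Hochberg over 13420 genes). The difference passed when base pairs covered replaced peak number (adjusted p = 0.00555 by the exact permutation test) and when 786-O SETD2KO-2 replicate 2, which has 7 EGFR peaks, was left out (exact permutation test, adjusted p = 0.00928). In these settings 11.4% and 6.73% of all genes passed, and of those 76.7% and 72.3% were higher in 786-O. Over the 24 alternatives the adjusted p reached 0.183, with lists of equal length (exact permutation test, difference 2.38 peaks). Among the other genes with a peak, the differences in mean peak number lay between -1.63 (IGF1R) and 1.88 (FGFR1).

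In best peak rank, 6.27% of the genes passed, 3.82% higher and 2.46% lower in 786-O, and no gene of the 10 did. The percentile rank of the best FGFR1 peak was 73.3 to 96.6 in 786-O and 44.2 to 78.7 in RPTEC, with means of 82.8 ± 9.16 and 65.3 ± 12.0 (two-sided exact permutation test, p = 0.00482, adjusted p = 0.0673). Without RPTEC SETD2KO-2 replicate 1 the adjusted p of FGFR1 was 0.0365 by the exact permutation test, and with peaks counted only where their summit lay in the gene it was 0.571 (p = 0.245), the highest of its 22 alternatives. DDR1 was the other way round, at 33.6 ± 31.9 in 786-O, where 2 libraries had no peak, and 72.5 ± 12.4 in RPTEC (exact permutation test, p = 0.00824, adjusted p = 0.0839). The DDR1 difference passed without 786-O SETD2KO-1 replicate 1, whose DDR1 peak at the 86.7th percentile was the highest in that cell line (exact permutation test, adjusted p = 0.0187), and with only peaks of at least 288 bp (exact permutation test, adjusted p = 0.0169), and its adjusted p reached 0.142 over the 22 alternatives.

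**Figure D2:**
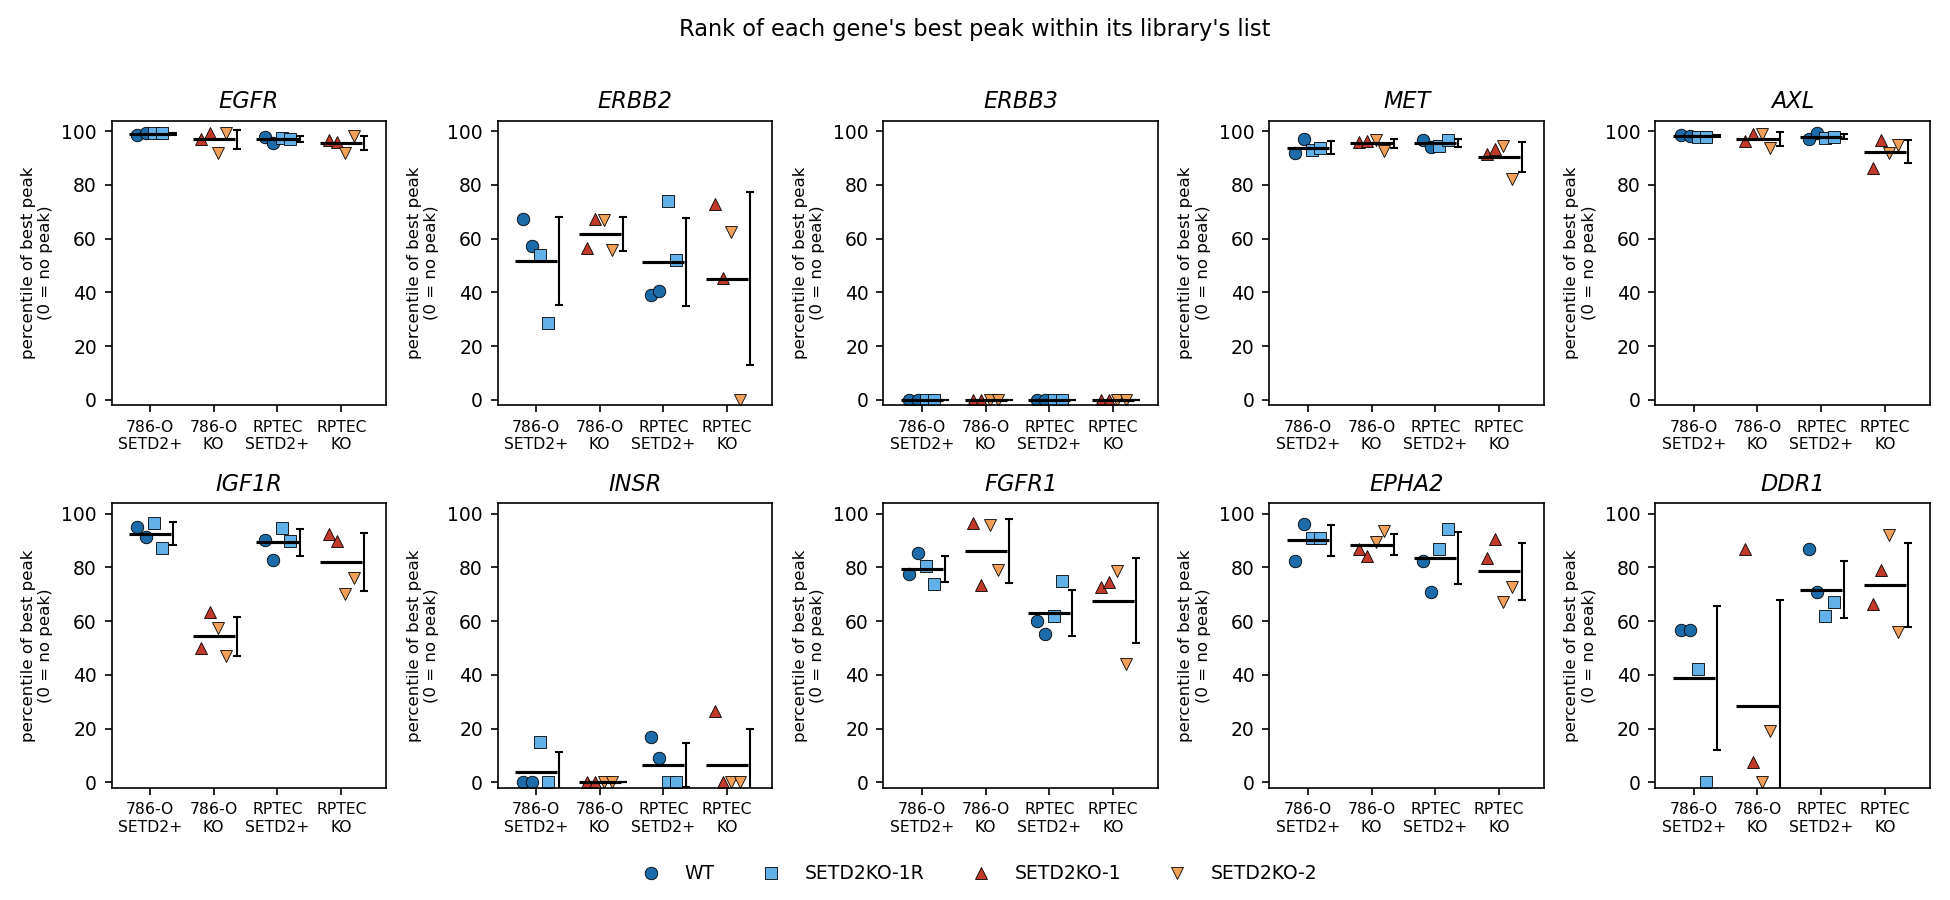
Percentile rank, within its library's list, of the best-scoring peak of each gene (vertical axis; 0 where no peak was called), with 1 point per library, bars at the mean of 4 libraries and error bars of ± 1 SD. EGFR, MET and AXL stay near the top in all groups, and IGF1R in 786-O SETD2KO (46.9 to 63.3) lies apart from 786-O SETD2-expressing (87.1 to 96.5).

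The peaks of all 16 libraries were merged into 99258 regions where they overlapped, of which 156 lay in the 10 genes. Of these, 9 (5.77%) were called in every library, against 4.25% of all regions, and 43 (27.6%) in 1 library alone, against 37.2% of all regions. None of the 156 differed between the cell lines past an adjusted p of 0.05, as 0.324% of all regions did, 0.172% called more often in 786-O and 0.152% less often (Fisher's exact test with Benjamini-Hochberg adjustment). The lowest p belonged to the EGFR region chr7:55166401-55167732, 148 kb from the annotated start, which was called in 8 of 8 786-O libraries and 1 of 8 in RPTEC (Fisher's exact test, p = 0.0014, adjusted p = 0.168). Its ranks ran from 5.97 to 74.8. Without RPTEC WT replicate 2, the RPTEC library that called it, 1 region of EGFR passed, as did 0.367% of all regions.

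The SETD2KO and SETD2-expressing libraries were then compared within each cell line. With 4 libraries against 4 the smallest exact p is 0.0286, reached where the groups do not overlap, and no adjusted p passed over all genes. The genes whose groups do not overlap are therefore given beside the share of all genes for which this held. These p-values take each library as a unit, whereas SETD2 status was set once per line. Over lines there are 3 groupings, and the smallest p that can be reached is 0.333.

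In 786-O the best IGF1R peak ranked lower in every SETD2KO library than in any SETD2-expressing library. The best IGF1R peak ranked at 49.9, 63.3, 57.3 and 46.9 in the SETD2KO-1 and SETD2KO-2 libraries, and at 95.1 and 91.4 in WT and 96.5 and 87.1 in SETD2KO-1R. The groups did not overlap and both rescued libraries lay with WT. The means were 54.4 ± 7.37 and 92.5 ± 4.22 (SD, n = 4 libraries each), a difference of -38.2 percentile points (two-sided exact permutation test, p = 0.0286, adjusted p = 0.61). IGF1R was the only 1 of the 9 genes with a peak whose ranks did not overlap between the groups in 786-O, where 4.68% of 12430 genes had this, 2.07% in the lower and 2.61% in the higher direction. The ranks of IGF1R also did not overlap with the upper 50% of each list, lists of equal length or peaks of at least 288 bp. Nor did they with peaks counted only where 50% of the peak or its summit lay in the gene. The rest of the 17 alternatives leave libraries out or permute within replicate numbers. These cannot make separate groups overlap. The best IGF1R peak of WT replicate 1 and SETD2KO-1R replicate 1 lay in the region chr15:98921866-98922210, 42.5 kb from the 3′ end, which was called in no SETD2KO library of 786-O. In RPTEC it was called in 4 libraries, 2 of them of SETD2KO-1. The share of all peaks on chromosome 15 was 2.78% to 3.10% in SETD2KO and 2.94% to 3.28% in SETD2-expressing libraries of 786-O.

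The peak number of IGF1R in 786-O was 5 ± 0.816 in SETD2KO, against 11.5 ± 3.87 with SETD2 (exact permutation test, p = 0.0571, adjusted p = 1). The groups touched at 6 peaks, in SETD2KO-1 replicate 2 and SETD2KO-1R replicate 2, and with either of these libraries left out the groups did not overlap. They also did not overlap as peaks per 10000 peaks of the list, 1.01 to 1.73 against 2.33 to 4.12. In that measure 4.49% of all genes had no overlap. In peak number none of the 9 genes with a peak was free of overlap in 786-O, where 2.42% of all genes were, 1.52% higher and 0.901% lower in SETD2KO. Of these genes 62.8% were higher, and 38.9% with lists of equal length and 40% per 10000 peaks.

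EGFR had 11.25 ± 3.69 peaks in 786-O SETD2KO, against 15.25 ± 2.36 with SETD2 (exact permutation test, p = 0.143, adjusted p = 1). The ranges overlapped through SETD2KO-2 replicate 1, which had 16 peaks, and did not without it. Per 10000 peaks of the list, the SETD2KO values of 2.42 to 4.03 lay below the SETD2-expressing values of 4.67 to 5.31 (p = 0.0286 by the exact permutation test, adjusted p = 0.636). The chromosome 7 share of all peaks was 5.23% to 5.53% in SETD2KO, 6.17% and 6.20% in WT, and 5.21% in both SETD2KO-1R libraries. Its part in the EGFR difference was not tested. MET lies on the same chromosome, with 13.25 ± 2.06 peaks in 786-O SETD2KO and 10.75 ± 2.06 in SETD2-expressing libraries. FGFR1 had 6.5 ± 2.89 and 4.25 ± 2.06, and the chromosome 8 share of all peaks was 4.22% to 4.45% and 3.45% to 3.74% in the same groups, its part in the FGFR1 values not being tested. AXL, EPHA2, ERBB2 and DDR1 differed by 0.25 to 0.5 peaks in their means.

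In RPTEC both EGFR and AXL had fewer peaks in every SETD2KO library than in any SETD2-expressing library, as 2.42% of 12185 genes differed without overlap, 1.41% in the lower and 1.01% in the higher direction. Of these genes 41.7% were higher, and 59.4% with lists of equal length and 52.6% per 10000 peaks. The median over all genes was 1.38 peaks per library in RPTEC, below EGFR and AXL. The share among genes with as many peaks as EGFR and AXL was not computed. EGFR had 5.5 ± 2.38 peaks in SETD2KO, against 9.5 ± 0.577 with SETD2, a difference of -4 (two-sided exact permutation test, p = 0.0286, adjusted p = 1). The chromosome 7 share of all peaks was 5.29% to 5.51% in RPTEC SETD2KO and 5.57% to 5.76% with SETD2, and its part in the EGFR difference was not tested. AXL had 6, 9, 9 and 6 peaks in the SETD2KO libraries and 12, 11, 13 and 12 in the WT and SETD2KO-1R libraries. The AXL means were 7.5 ± 1.73 and 12 ± 0.816, a difference of -4.5 (exact permutation test, p = 0.0286, adjusted p = 1). With lists of equal length the EGFR groups overlapped (difference -1, exact permutation test, p = 0.486) and the AXL groups did not. The EGFR groups also overlapped with the upper 50% of each list (difference -0.5, exact permutation test, p = 0.743). With peaks of at least 288 bp alone, or with base pairs covered, the AXL groups overlapped.

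AXL also ranked lower in RPTEC SETD2KO, at 86.5, 96.6, 91.7 and 94.9 against 97.2 and 99.3 in WT and 97.7 in both SETD2KO-1R libraries. The difference was -5.53 percentile points (exact permutation test, p = 0.0286, adjusted p = 0.7), and AXL was the only 1 of the 9 genes without overlap in rank, against 4.08% of all genes, 2.09% lower and 1.99% higher. The chromosome 19 share of all peaks was 5.59% to 6.67% in RPTEC SETD2KO and 7.08% to 7.56% in RPTEC SETD2-expressing libraries, and its part in the AXL difference was not tested. MET ranked at 90.3 ± 5.67 and 95.5 ± 1.42 (exact permutation test, p = 0.0571, adjusted p = 0.9). The MET groups overlapped through SETD2KO-2 replicate 1 (94.5) and WT replicate 2 (94.0), and did not overlap with either of these left out.

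IGF1R had 7.5 ± 2.65 peaks in RPTEC SETD2KO, against 12.25 ± 2.75 with SETD2 (exact permutation test, p = 0.0857, adjusted p = 1). The groups overlapped because SETD2KO-1 replicate 2 had 10 peaks and WT replicate 1 had 9, and did not overlap without the latter. The ranks of the best IGF1R peak in RPTEC were 92.5 and 89.8 in SETD2KO-1, 70.02 and 76.00 in SETD2KO-2, and 82.8 to 94.9 in the SETD2-expressing libraries. SETD2KO-1 lay within the SETD2-expressing range and SETD2KO-2 below it. EPHA2 had 6 ± 1.15 and 8.75 ± 2.99 peaks, FGFR1 had 4.5 ± 3.51 and 2.5 ± 1.29, and MET had 11.75 ± 2.99 and 13 ± 2.16, all with overlapping ranges.

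The SETD2KO difference was compared between the cell lines by permuting SETD2 labels within each. AXL differed by 0.25 peaks in 786-O and by -4.5 in RPTEC, a difference of 4.75 between the effects (exact permutation test over 4900 arrangements, p = 0.0241, adjusted p = 1). An unadjusted p of 0.05 or less was found in 3.61% of the 13420 genes, and an adjusted one in 0. Over the 24 alternatives the p for AXL ran from 0.0143 to 0.396 (exact permutation test), the highest with lists of equal length. EGFR differed by -4 peaks in both cell lines, so that its difference of effects was 0. IGF1R differed by -6.5 and -4.75 peaks, a difference of -1.75.

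**Figure D3:**
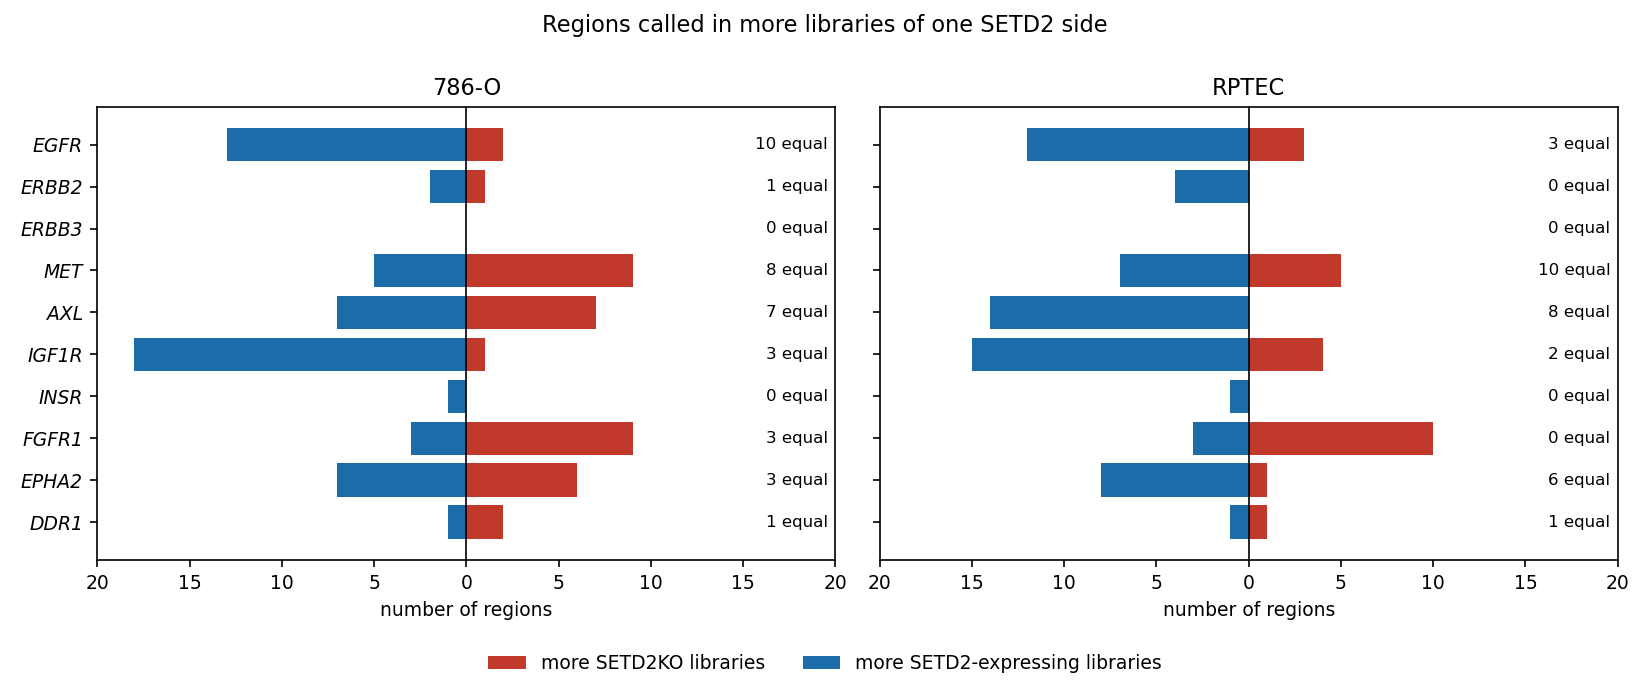
Number of regions of each gene that were called in more SETD2-expressing than SETD2KO libraries (blue, to the left) or in more SETD2KO libraries (red, to the right), in 786-O and RPTEC, 4 libraries per side; regions called equally often are given as text. IGF1R and EGFR lean to the SETD2-expressing side in both cell lines, FGFR1 leans to SETD2KO in both, and AXL leans in RPTEC.

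Regions were counted in the same way within each cell line, where 130 regions of the 10 genes were found in 786-O and 119 in RPTEC. In IGF1R, 18 of 22 regions in 786-O were called in more SETD2-expressing libraries and 1 in more SETD2KO libraries. The corresponding counts in RPTEC were 15 and 4 of 21. In EGFR they were 13 and 2 of 25 in 786-O and 12 and 3 of 18 in RPTEC. FGFR1 went the other way, with 3 regions called in more SETD2-expressing and 9 in more SETD2KO libraries of 15 in 786-O, and 3 and 10 of 13 in RPTEC. The chromosome 8 share of all peaks was higher without overlap in SETD2KO in RPTEC too, at 3.75% to 3.98% against 3.34% to 3.68%, and its part in this lean was not tested. AXL was even in 786-O, at 7 and 7 of 21, and in RPTEC had 14 and 0 of 22. Over the 10 genes the counts were 57 and 37 in 786-O (43.8% and 28.5% of the regions) and 65 and 24 in RPTEC (54.6% and 20.2%). Of all regions, 34% and 41.4% leaned these ways in 786-O and 43.6% and 33.2% in RPTEC, so that in RPTEC the regions as a whole also leaned to SETD2-expressing. Regions of 1 gene share its RNA and are not independent, and no test was made over them.

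A region called throughout 1 group of 4 and absent from the opposite group was found once per cell line in the 10 genes. Of all regions, 0.622% had this in 786-O, 0.475% towards SETD2KO and 0.147% towards SETD2-expressing, and 0.475% in RPTEC, 0.263% and 0.212%. In 786-O it was the ERBB2 region chr17:39719967-39720492, called in 4 of 4 SETD2KO and 0 of 4 SETD2-expressing libraries at ranks of 1.45 to 44.8 (Fisher's exact test, p = 0.0286, adjusted p = 1). In RPTEC it was the MET region chr7:116746942-116747502, also called in 4 and 0 libraries, at ranks of 8.63 to 68.3 (Fisher's exact test, p = 0.0286, adjusted p = 1). When the peaks of both cell lines were merged, the MET region became part of chr7:116746942-116750799, which was called in all 16 libraries. The same ERBB2 site in RPTEC, chr17:39719785-39720438, had calls in 1 SETD2KO library and in 2 with SETD2. The opposite pattern, present with SETD2 and absent without it, was found at 0 regions of the 10 genes.

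Calls differed by at least 3 libraries towards SETD2-expressing at 2 regions in 786-O and 4 in RPTEC, and at 1.22% and 1.88% of all regions. Towards SETD2KO they did at the ERBB2 and MET regions above, and at 2.67% and 1.55% of all regions. In 786-O both regions lay in IGF1R, and the first was the region over its start, chr15:98648403-98649103, where the lncRNA IRAIN also lies. It was called in 4 of 4 SETD2-expressing and 1 of 4 SETD2KO libraries (Fisher's exact test, p = 0.143, adjusted p = 1), and the SETD2KO call was in SETD2KO-1 replicate 1. The start region in RPTEC, chr15:98648365-98649278, was called in 4 of 4 and 3 of 4. A region in the body of IGF1R, chr15:98707722-98708066, was called in 3 and 0. In RPTEC, chr15:98662588-98663338 of IGF1R was called in 3 SETD2-expressing and 0 SETD2KO libraries, and chr7:55203074-55203705 of EGFR in 4 and 1. The other such regions in RPTEC, chr17:39723158-39723468 of ERBB2 and chr7:116795897-116796317 of MET, were called in 3 and 0.

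**Figure D4:**
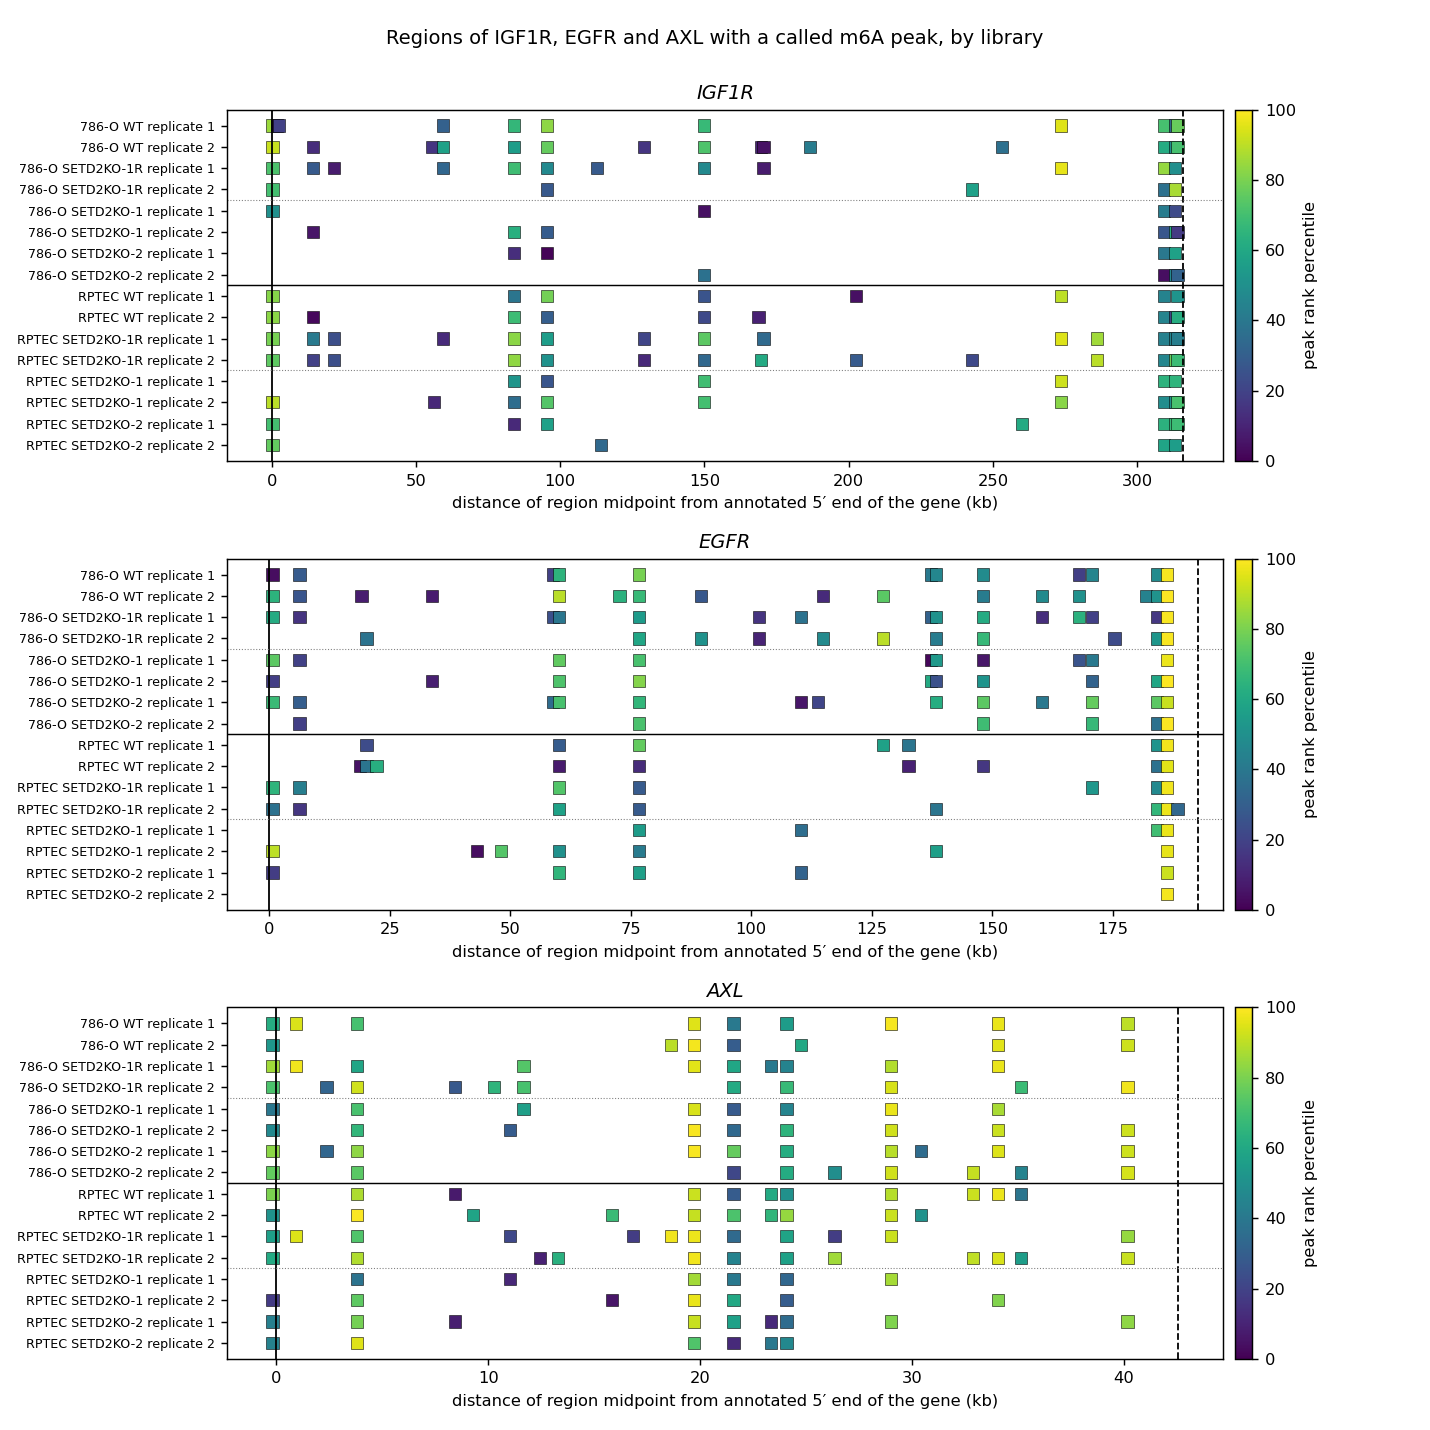
Called regions of IGF1R, EGFR and AXL in each of the 16 libraries (rows), by distance of the region from the annotated 5′ end of the gene in kb (solid line, start; dashed line, 3′ end); each square is a region with a called peak, coloured by the rank percentile of its best peak. In IGF1R the squares near the 3′ end are present in all rows, and those along the rest of the gene are sparse in the 786-O SETD2KO rows (1 to 3 peaks per library).

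The position of the IGF1R and EGFR peaks was examined after these calls had been seen, as a description. Within 10 kb of the 3′ end, IGF1R had a mean of 3 peaks in 786-O SETD2KO and 3 in SETD2-expressing libraries, and 3.25 in each group in RPTEC. Elsewhere in IGF1R there were 1 to 3 peaks in 786-O SETD2KO and 3 to 12 in SETD2-expressing libraries, with means of 2 and 8.5. In RPTEC these were 2 to 6 and 7 to 11, with means of 4.25 and 9. The split at 10 kb was made with the IGF1R calls known and was not run over all genes, and the undivided IGF1R counts overlapped in both cell lines. For EGFR the means near the 3′ end were 3 and 3.5 in 786-O and 2.5 and 4 in RPTEC, and those elsewhere were 8.25 and 11.75 in 786-O and 3 and 5.5 in RPTEC. In RPTEC SETD2KO-2 replicate 2, the shortest list, all 3 EGFR peaks lay near the 3′ end. MET, with few peaks within 10 kb of its 3′ end (0 to 2 per library), had means of 12.25 and 9.5 peaks elsewhere in 786-O and 10.5 and 11.25 in RPTEC.

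Other genes of these pathways were examined by 4 lists of other receptors, ligands, signalling partners and inhibitors. Of 48 other receptor tyrosine kinases, 28 had a peak in at least 1 library. Between the cell lines, 4 of the 28 were higher in 786-O and 4 lower at an adjusted p of 0.05 or less, against 3.44% and 1.92% of all genes (exact permutation test with Benjamini-Hochberg adjustment over all genes). The higher ones were ROR2, a receptor for WNT5A, and the fibroblast growth factor receptors FGFR2, FGFR3 and FGFR4, all with 0 peaks in the 8 RPTEC libraries. ROR2 had 2 to 7 peaks in 786-O, a mean of 4.38 ± 1.6 (exact permutation test, adjusted p = 0.00831). FGFR2 had 2.25 ± 1.16 and FGFR3 had 2.13 ± 1.13. FGFR1 was the only fibroblast growth factor receptor of the 4 with peaks in RPTEC.

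The lower ones were the ephrin-B receptors EPHB1, EPHB2 and EPHB4, and PTK7. EPHB2 had 1 to 3 peaks in 786-O and 11 to 40 in RPTEC, with means of 2.13 ± 0.641 and 25.1 ± 9.31 (exact permutation test, adjusted p = 0.00831). EPHB4 had 0.25 ± 0.463 and 4 ± 2.14, and EPHB1 had 1.25 ± 1.58 and 6.25 ± 3.92 (adjusted p = 0.047 by the exact permutation test). The EPHB1 call was lost with 10 of the 16 libraries left out singly, namely both replicates of 786-O WT, SETD2KO-2 and SETD2KO-1R and of RPTEC SETD2KO-1 and SETD2KO-2. That of FGFR3 was lost with any RPTEC library left out except WT replicate 1 and SETD2KO-1R replicate 2 (adjusted p of 0.0503 to 0.0517 by the exact permutation test). EPHA2 itself, the ephrin-A receptor, had 8.25 ± 3.01 and 7.38 ± 2.56 peaks. With lists of equal length FGFR2 and EPHB1 no longer passed, and with the upper 50% of each list by score FGFR2, FGFR3 and EPHB1 did not. ROR2, EPHB2 and EPHB4 passed under all 24 alternatives. In best rank, 4 of the 28 other receptors were higher and 4 lower in 786-O, against 3.82% and 2.46% of all genes.

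**Figure D5:**
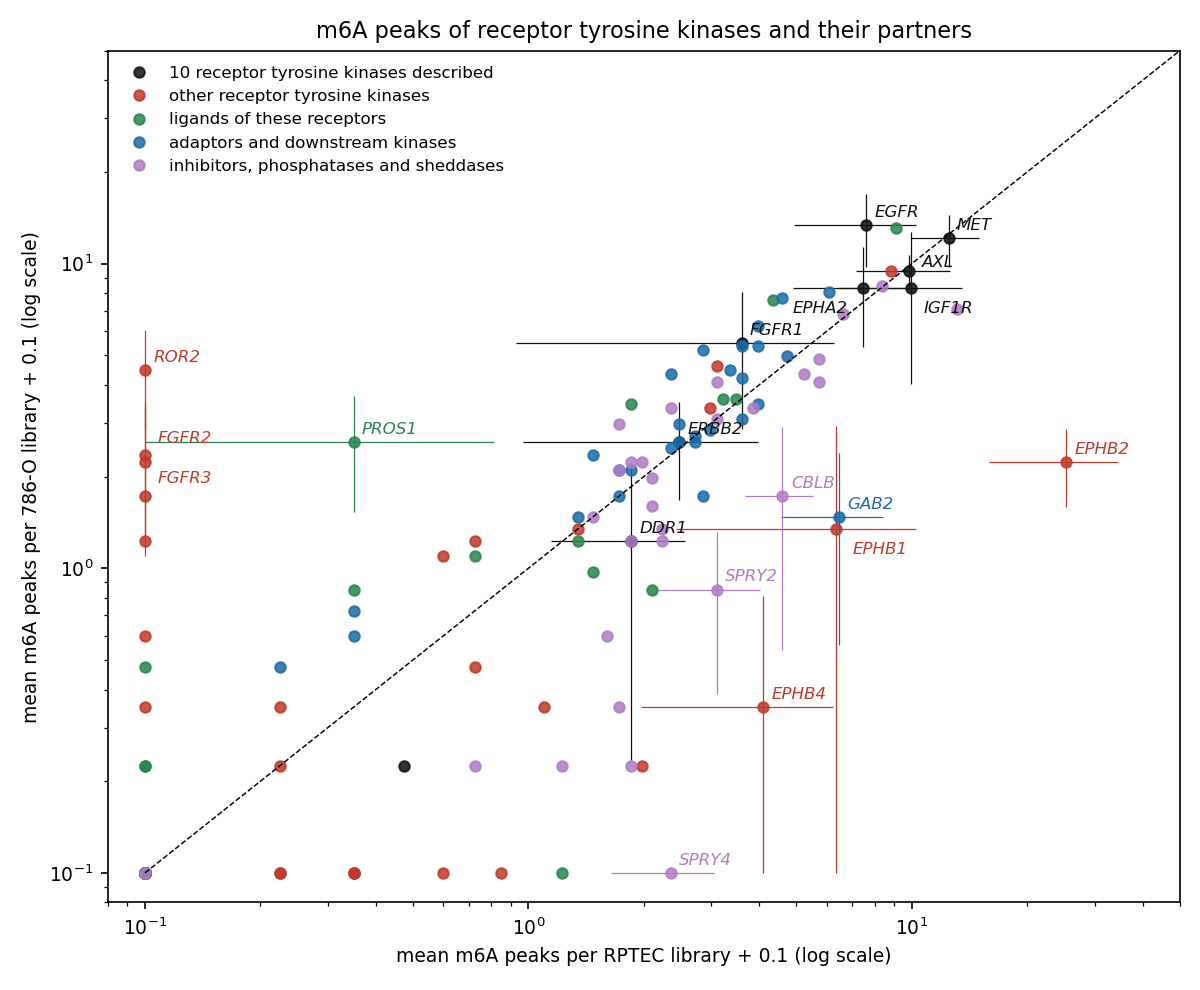
Mean m6A peak number per library in RPTEC (horizontal) and 786-O (vertical), 8 libraries each, on log axes after adding 0.1, for the 10 receptor tyrosine kinases and the genes of the 4 other lists; lines are ± 1 SD for the named genes, drawn down to 0 peaks at most, and the dashed line marks equal numbers. EPHB2, GAB2 and the Sprouty genes lie well below the line, and ROR2 and FGFR2 at the left edge have 0 peaks in RPTEC.

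Of 24 ligands, 15 had a peak. PROS1, a ligand of the AXL family, was higher in 786-O at 2.5 ± 1.07 against 0.25 ± 0.463 peaks (exact permutation test, adjusted p = 0.028), but not with lists of equal length or the upper 50% of each list, and no ligand was lower in peak number. In peak number 1 of the 15 was thus higher and 0 lower, against 3.44% and 1.92% of all genes. In best rank 0 ligands were higher and 1 was lower, against 3.82% and 2.46%. All 28 adaptors and downstream kinases had a peak, and 1 of them was called, against 5.36% of all genes. The docking protein GAB2 had 1.38 ± 0.916 peaks in 786-O and 6.38 ± 1.92 in RPTEC (exact permutation test, adjusted p = 0.00831). Of the 29 inhibitors, phosphatases and sheddases, 28 had a peak, 5 were lower in 786-O and 0 higher in peak number, against 1.92% and 3.44% of all genes. In best rank 5 were lower and 1 higher, against 2.46% and 3.82%. Those with fewer peaks were the ubiquitin ligase CBLB, the Sprouty proteins SPRY2 and SPRY4, which restrain RAS-MAPK signalling, and the MAPK phosphatases DUSP4 and DUSP6. SPRY4 had 0 peaks in all 786-O libraries and 1 to 3 in RPTEC, SPRY2 had 0.75 ± 0.463 and 3 ± 0.926, and CBLB had 1.63 ± 1.19 and 4.5 ± 0.926. With the upper 50% of each list GAB2, SPRY2 and SPRY4 no longer passed, while CBLB passed under all 24 alternatives. The median difference of this list was -0.563 peaks, against 0.25 over all genes and -0.25 over the 9 receptors.

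Between SETD2KO and SETD2-expressing libraries, few genes of these lists were free of overlap. In 786-O the best GAB2 peak ranked at 0, 22.99, 0.81 and 2.07 in SETD2KO, where 0 means no peak, and at 52.3 to 84.2 with SETD2 (exact permutation test, p = 0.0286, adjusted p = 0.61), the 1 gene of the 28 adaptors and kinases without overlap, as were 4.68% of all genes. RYK, a WNT receptor, had 2 peaks in each SETD2KO library of 786-O and 0 or 1 in the SETD2-expressing ones, the 1 gene of the 21 other receptors tested there without overlap in peak number, against 2.42% of all genes. In RPTEC, IGF2, a ligand of IGF1R, had 2, 3, 2 and 2 peaks in SETD2KO and 0 in the 4 libraries with SETD2 (exact permutation test, p = 0.0286, adjusted p = 1), and 0 in all 786-O libraries. The ephrin EFNA1, a ligand of EPHA2, had 0 peaks in RPTEC SETD2KO and 1 or 2 in SETD2-expressing libraries. PDGFRB had 1 or 2 in RPTEC SETD2KO and 0 in SETD2-expressing libraries, whereas in 786-O it had 0, 0, 1 and 1 in SETD2KO, 0 and 1 in WT and 4 and 2 in SETD2KO-1R. Of the ligands, 1 of 12 tested was thus higher and 1 lower in RPTEC, against 1.01% and 1.41% of all genes. In best rank, 3 of the 21 other receptor tyrosine kinases tested in RPTEC were higher in every SETD2KO library and 0 lower, against 1.99% and 2.09% of all genes, namely RYK, PDGFRB and EPHB1, whose ranks were 86.3 to 91.5 in SETD2KO and 82.3 to 85.0 with SETD2. IGF2 overlaps IGF2-AS and INS-IGF2, GAB2 overlaps USP35, EPHB4 overlaps SLC12A9 and SPRY4 overlaps SPRY4-IT1, which the lists do not separate.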

How the data were processed

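MeRIP-seq had been run on 16 IP libraries with matched Input. Per the labels and methods, the authors mapped reads to hg38 (STAR), scaled by E. coli spike-in reads (HTSeq 2.0.3 counts) and ran MACS2 2.2.9.1 on each IP with its Input as control. The deposited lists give each peak a whole-number score of unstated scale, used only for ranks, and a summit offset. Other value columns were 0 and not used. The methods give a minimum number of reads per library, but the depth of each is unknown here.

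The 10 genes and the 4 lists were chosen with earlier results of these data known. Named were the 10 genes, up to 3 genes per list and direction with the largest difference between cell lines, and the most frequent region of each gene; FGFR4, PTK7, DUSP4 and DUSP6 and regions with calls differing by 3 were added after their values were seen. Measures were peaks overlapping a gene body by 1 bp, the percentile of the best peak (0 if none) and calls of merged regions. Gene bodies hold no exons. Groups were compared by exact permutation tests, regions by Fisher's exact test, with Benjamini-Hochberg adjustment over all protein-coding genes or regions. Steps were tested on simulated data. Alternatives were the upper 50% of each list, equal list lengths (19249 peaks), peaks of at least 288 bp, 50% or summit overlap, base pairs covered, peaks per 10000, peaks within 100 bp merged, single clones, WT alone, leave-one-out and a block on replicate number. Tests ran in SciPy 1.17.1 and NumPy 2.4.6 (Python 3.11.15), tables in pandas 2.3.3 and plots in Matplotlib 3.10.9.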

Additional observations from a re-analysis of the deposited data

Results flagged for a closer look

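The SETD2KO difference in AXL peak number was 0.25 in 786-O and -4.5 in RPTEC. These differed by 4.75 peaks (exact permutation test, p = 0.0241, adjusted p = 1), 1 of 9 such tests.

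In 8 of 70 groups of 4 libraries that had any spread, 1 library lay far from the other 3. Chance gives this in about 1 group of 20 for continuous values, a rate that does not hold for the AXL and INSR groups, where the other 3 libraries were tied and any lone different value stands apart. MET ranked at 92.8 in 786-O SETD2KO-2 replicate 2 and at 96.1 to 96.7 in the other SETD2KO libraries of 786-O. AXL had 11 peaks in 786-O SETD2KO-2 replicate 1 against 9 in each of the other SETD2KO libraries, and 7 in 786-O WT replicate 2 against 10 in each of the other SETD2-expressing libraries. INSR had its peak in a single library in 2 groups, 786-O SETD2KO-1R replicate 1 (1 peak, rank 14.9) and RPTEC SETD2KO-1 replicate 1 (1 peak, rank 26.4), and stood apart in both measures there. FGFR1 ranked at 44.2 in RPTEC SETD2KO-2 replicate 2, the shortest list, and at 72.8 to 78.7 in the other RPTEC SETD2KO libraries.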

How the results depend on the processing

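Counts of the 10 genes past a rule moved by 1 or 2, since the main counts were 0 to 2. In peak number between cell lines the count went from 0 to 1 with base pairs covered (EGFR), and was 0 to 1 with each library left out (1 without 786-O SETD2KO-2 replicate 2). Of all genes, 5.36% passed in the main test, 11.4% with base pairs covered and 6.73% without that library. In best rank it went from 0 to 1 with peaks of at least 288 bp (DDR1), and was 0 to 1 with each library left out (1 without 786-O SETD2KO-1 replicate 1 or RPTEC SETD2KO-2 replicate 1). The share of all genes was 6.27% in the main test and 6.25% with peaks of at least 288 bp. Without these libraries in turn it was 4.55% and 5.72%. In peak number between SETD2KO and SETD2-expressing libraries of 786-O the count of the 10 genes went from 0 to 1 with the upper 50% of each list, equal list lengths, peaks of at least 288 bp, WT alone or SETD2KO-2 alone (IGF1R in each) and SETD2KO-1 alone (EGFR), and to 2 per 10000 peaks of the list (EGFR and IGF1R), and was 0 to 1 with each library left out (1 without SETD2KO-1 replicate 2, SETD2KO-2 replicate 1 or SETD2KO-1R replicate 2). The share of all genes was 2.42% in the main setting, 1.49% with the upper 50% and 1.77% with equal list lengths. It was 2.1% with peaks of at least 288 bp and 4.49% per 10000 peaks. With WT, SETD2KO-1 or SETD2KO-2 alone it was 8.87%, 7.44% and 6.15%, and 3.29% to 4.6% with each library left out. Fewer libraries per side make overlap less likely for every gene. In RPTEC the count of the 10 genes went from 2 to 1 with the upper 50%, equal list lengths (AXL kept) and base pairs covered (EGFR kept), stayed at 2 with peaks of at least 288 bp but with IGF1R in place of AXL, and was 2 to 3 with each library left out (IGF1R added without WT replicate 1, EPHA2 without WT replicate 2). The share of all genes was 2.42% in the main setting, 1.46% with the upper 50% and 1.81% with equal list lengths. It was 4.67% with base pairs covered, 1.95% with peaks of at least 288 bp and 3.35% to 4.4% with each library left out. In best rank in RPTEC the count of the 10 genes went from 1 to 2 with the replicate block, SETD2KO-1 alone (MET added in both) and SETD2KO-2 alone (IGF1R added), and was 1 to 2 with each library left out (2 without WT replicate 2 or SETD2KO-2 replicate 1). The share of all genes was 4.08% in the main setting, 5.97% with the block, 12.8% with SETD2KO-1 alone and 14% with SETD2KO-2 alone. With each library left out it was 5.99% to 7.52%. Region calls between cell lines gave 0 to 1 with each library left out (1 without RPTEC WT replicate 2). Of all regions, 0.324% passed in the main test and 0.367% without that library. Region calls in 786-O went from 1 to 0 with the upper 50% and to 2 where a peak had to cover 50% of the region, with 1 to 2 when a library was left out (2 without SETD2KO-1 replicate 1 or SETD2KO-1R replicate 2). The share of all regions was 0.622% in the main setting, 0.518% and 0.473% in these, and 0.984% to 1.38% with a library left out. In RPTEC the region calls went from 1 to 2 with the upper 50% (both in AXL), to 0 with equal list lengths and to 2 where a peak had to cover 50% of the region, with 1 to 2 when a library was left out (2 without WT replicate 1 or 2, SETD2KO-1 replicate 1 or SETD2KO-1R replicate 2). The share of all regions was 0.475% in the main setting, 0.42%, 0.426% and 0.342% in these, and 0.757% to 1.02% with a library left out.

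Of 12 differences of the 10 genes given with a p and recomputed, 0 changed sign, and of 43 others, 20 changed sign under at least 1 alternative, 0 of them a called one. The replicate block, which permutes labels within replicate numbers, changed no count other than that of best rank in RPTEC (2). The difference in best rank between the 2 replicates of a line was correlated over genes with that of other lines. The correlations ran from -0.0475 to 0.193 in 786-O and from -0.169 to 0.179 in RPTEC. They do not show whether same-numbered libraries were prepared together. EPHB1 lost its call under the block (adjusted p = 0.0649 by the exact permutation test). The depth of each library is unknown, so its part in list length and peak number was not tested. The causes were not tested.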
